A study of Mus musculus with 2 samples.

Results

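The genes described here are 6 serpins and 2 plasminogen activators, 8 of the 32285 genes listed for cultured white and brown adipose progenitors. They are a list of names, drawn up with earlier results of these data known: Serpine2, Serpinf1, Serping1, Serpinh1, Serpinb1a and Serpinb6a for the serpins, Plat and Plau for the activators. All 8 were found in the files. Serpinb1a is also among the genes by which the study describes its clusters of fibro-adipogenic progenitor-like cells (FAPLs), so its level there is not independent of those names. The study asked how white and brown preadipocytes differ and which subpopulations they share. Newborn (P0) C57/BL6J pups of both sexes gave subcutaneous white (WAT) and interscapular brown (BAT) fat, digested with collagenase for 35 and 50 min, respectively, and the stromal vascular cells were grown to confluency in 4 days without treatment. Pups were pooled, and each depot gave 1 library of single-cell 3′ RNA sequencing.

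Serpins are proteins that mostly trap proteases: the protease cuts a bait loop, the serpin changes shape, and both are held in a dead complex. Some members have lost this activity and act as chaperones or signals. Tissue-type and urokinase-type plasminogen activator, the products of Plat and Plau, are serine proteases that turn plasminogen into plasmin, which degrades fibrin and helps to open the matrix around fat progenitors. Serpine2 (protease nexin-1) blocks both activators and thrombin, so enzymes and inhibitors of one system stand side by side among these genes.

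The files hold counts of unique molecular identifiers (UMIs). Precursor cells were grouped by the study's own cluster labels, taken from its source data. Glial, myeloid and myogenic groups also hold cells labelled here by vote of labelled neighbours. In each depot labels of 1999 precursors, the first in barcode order, were used here, and the clusters are wAPC 1 to 4 and bAPC 1 to 5 (adipocyte precursor cells), committed adipogenic precursors (wCAPs, bCAPs), fibro-adipogenic progenitor-like cells (wFAPLs, bFAPLs) and 15 differentiating wFAPLs, which were kept apart from the 13 clusters of at least 50 cells. Levels are counts per 1e6 UMIs (CPM), from UMIs added up over all cells of a cluster, and the ranges given in parentheses are exact 95% Poisson intervals. Ratios of 2 levels have exact conditional binomial intervals and shares of cells exact Clopper-Pearson intervals, all at 95%. These intervals cover counting error only. With 1 library per depot, and clusters that the authors drew from the same counts, no test was possible and every difference below is a description.

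The libraries hold 5261 white and 7009 brown cells, with medians of 26239 and 26411 UMIs. The 2 libraries share 9 cell barcodes. Labelled precursors carried Pdgfra at 115 CPM in WAT and 82.8 CPM in BAT, while Adipoq, made by mature adipocytes, was at 0.09 CPM in WAT and 0.42 in BAT (5 and 24 UMIs), with 1.10 in bCAPs as the highest cluster of at least 50 cells. All 7 mural markers looked at were detected in every white and brown CAP and FAPL cluster, and their summed level was 2431 CPM in wCAPs, 4767 in wFAPLs, 4368 in bCAPs and 6230 in bFAPLs. Most of each sum was Acta2, at 2352, 4155, 4198 and 5500 CPM in the same order. High sums were not particular to FAPLs: wAPC 1 held 5225 CPM, bAPC 2 held 5974 and bAPC 4 held 6062. The differentiating wFAPLs stood far apart, with a sum of 30730 CPM.

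All 8 genes lie on autosomes (GRCm38, GENCODE vM21). Serpine2 occupies chr1:79794197-79861180, Serpinf1 chr11:75409769-75422701, Serping1 chr2:84765387-84775444 and Serpinh1 chr7:99345376-99353239, all on the minus strand. Serpinb1a (chr13:32842092-32851185) and Serpinb6a (chr13:33917918-34002794), also on the minus strand, belong to one serpin cluster and are 1067 kb apart. Plat is at chr8:22757727-22782844 and Plau at chr14:20836660-20843385, both on the plus strand. Promoters of 4 of the 8 genes were matched in a RefSeq table (GRCm38.p6). Those of Serpine2 and Serpinh1 are printed because these are the most and the least varied across clusters of the 4. Bases within the genes' own annotated exons were left out, and capitals mark GGGCGG or its reverse complement CCGCCC, the GC box letters, with overlapping matches counted.
Serpine2, chr1:79858697-79858915, minus strand: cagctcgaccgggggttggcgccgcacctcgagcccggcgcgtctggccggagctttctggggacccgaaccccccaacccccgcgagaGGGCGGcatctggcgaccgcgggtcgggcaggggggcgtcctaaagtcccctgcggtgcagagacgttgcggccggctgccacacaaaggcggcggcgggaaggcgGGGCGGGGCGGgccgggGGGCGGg
Serpinh1, chr7:99353240-99353489, minus strand: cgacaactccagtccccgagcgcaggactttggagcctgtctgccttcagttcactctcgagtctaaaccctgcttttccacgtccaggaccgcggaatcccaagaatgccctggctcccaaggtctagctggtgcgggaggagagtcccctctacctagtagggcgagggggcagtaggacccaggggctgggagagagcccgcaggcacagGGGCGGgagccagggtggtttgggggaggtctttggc
The RefSeq start used for Serpine2 lies inside the gene span given above, not at its outer end. The 250 bases before it are 78.8% G or C, with 34 CpG pairs and 6 GC boxes, 4 of them in the stretch shown. For Serpinh1 these values are 63.6%, 11 and 1. A GC box was found in 32.7% of 32851 promoters of the same length, whose median was 52.4% G or C and 6 CpG pairs. The letters TATAAA, found in 12.4% of all promoters on either strand, were in neither window.

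Serpine2, a secreted inhibitor of plasminogen activators and thrombin, was lowest in FAPLs and highest in brown CAPs. White cells of wAPC 1 held 52.6 CPM, those of wAPC 2 held 95.1, wAPC 3 and wAPC 4 were at 45.4 and 43.6, and wCAPs and wFAPLs at 82.5 and 22.5. In brown cells it was 81.6 in bAPC 1, 86.1 in bAPC 2, 71.7 in bAPC 3, 80.3 in bAPC 4, 122 in bAPC 5, 215 in bCAPs and 53.2 in bFAPLs. The FAPLs were thus the lowest cluster of each depot, and bCAPs stood above the next brown cluster by 0.81 on the log2 scale (0.66 to 0.98). A UMI of Serpine2 was found in 90.5% of bCAPs (86.6 to 93.6%) and in 36.7% of wFAPLs (30.8 to 42.9%), at median depths of 25900.5 and 26730.5 UMIs. Outside the precursors the gene was high in glial cells, at 395 CPM in WAT and 359 in BAT, with a UMI in all 46 and all 68 of them. The few myeloid cells held 11.8 CPM in WAT and 40.6 in BAT.

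Serpinf1 encodes PEDF, a secreted serpin that does not inhibit proteases and is known as an anti-angiogenic factor and a product of fat progenitors. It was found in 99.7% of labelled precursors of each depot. Its level ran from 793 CPM in wFAPLs to 1009 in wAPC 4, a 1.27-fold range over the 6 white clusters of at least 50 cells. The brown clusters spread further, by 2.30-fold, from 667 in bCAPs (650 to 685) to 1532 in bAPC 2 (1510 to 1554), with bAPC 4 second at 1057. In white cells the 2 highest clusters, wAPC 4 and wAPC 3, differed by 0.03 on the log2 scale (-0.04 to 0.11), within counting error. Glial cells held 69.1 CPM in WAT and 150 in BAT.

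Serping1 encodes C1 inhibitor, which blocks the first proteases of the complement cascade. Of the 13 clusters, both FAPL clusters were highest, with 98.2 CPM (91.1 to 106) in wFAPLs and 91.1 (84.5 to 98.2) in bFAPLs. Their difference was within counting error (-0.11 on the log2 scale, brown over white, -0.26 to 0.05). The 15 differentiating wFAPLs, kept apart, were higher, at 218 CPM. The other white clusters lay between 17.7 in wAPC 3 and 34.7 in wAPC 2, the other brown ones between 13.2 in bAPC 3 and 54.5 in bCAPs. A UMI was seen in 74.6% of wFAPLs, 71.3% of bFAPLs, 43.8% of wCAPs and 56.1% of bCAPs. White and brown glial cells, with median depths of 20107 and 19494.5 UMIs, had one in 4.35% and 1.47%.

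Serpinh1 encodes HSP47, a chaperone of the endoplasmic reticulum that folds procollagen and inhibits no protease. It was the steadiest gene, found in 100% of labelled precursors of both depots. Its level ranged 1.27-fold over all 13 clusters, from 1574 CPM in wCAPs to 2006 in bAPC 2. Myeloid cells held much less, 103 CPM in WAT and 253 in BAT.

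Serpinb1a and Serpinb6a stay inside the cell, the first an inhibitor of neutrophil elastase and related granule proteases. For Serpinb1a, wAPC 1 and wAPC 2 gave 5.22 and 5.41 CPM, wAPC 3 and wAPC 4 gave 7.07 and 5.89, and wCAPs 8.41, against 76.3 in wFAPLs (70 to 83). In BAT it was 7.01 in bAPC 1, 6.45 in bAPC 2, 5.48 in bAPC 3, 5.58 in bAPC 4, 10.2 in bAPC 5 and 15.8 in bCAPs, against 94.5 in bFAPLs (87.6 to 102). No interval of another cluster reached those of the FAPLs in either depot. White glial and white myeloid cells had 0 UMIs, which allows up to 2.84 and 3.55 CPM (as for the other counts of 0, 3 counts over the group's total in place of the Poisson interval), and 31 brown myogenic cells held 23.8 CPM (14.9 to 36.1).

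The Serpinb1a signal was unevenly spread within the FAPLs. At least 1 UMI was found in 53.9% of wFAPLs (47.6 to 60.1%) and 59.9% of bFAPLs (53.8 to 65.7%), compared with 17.4% of wCAPs, 19.9% of bCAPs, 0 of 46 white glial cells and 1.47% of brown glial cells. The 26 wFAPLs and 28 bFAPLs with the most UMIs of the gene, 1 in 10 cells, held 59.0% and 50.8% of all Serpinb1a UMIs of their cluster. Single cells reached 60 UMIs in wFAPLs and 45 in bFAPLs, while the median in both was 1. With every cell thinned to 10000 UMIs, 34.0% of wFAPLs and 41.6% of bFAPLs kept a UMI, against 8.0% of wCAPs and 9.5% of bCAPs. For comparison, the top 1 in 10 cells held 19.1% and 18.3% of the Serpinh1 UMIs in the same clusters, a share that also depends on how many UMIs a gene has.

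Serpinb6a, a broadly expressed relative of Serpinb1a, was found in 99.0% of white and 99.7% of brown precursors. Its levels ranged from 220 CPM in wAPC 2 to 315 in wFAPLs and from 261 in bCAPs to 375 in bFAPLs (361 to 389), so FAPLs were the highest cluster of both depots with a far smaller span than for Serpinb1a. Myeloid cells held 548 CPM in WAT and 572 in BAT, above every precursor cluster.

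Plat, the tissue-type activator, was highest in wAPC 4, a cluster of 62 cells, at 76.6 CPM (64 to 91). It followed at 49.7 in wAPC 2, 39.0 in wAPC 3, 37.8 in wFAPLs, 36.7 in wAPC 1 and 33.8 in wCAPs. The gap of wAPC 4 to wAPC 2 was 0.62 on the log2 scale (0.33 to 0.91), and 90.3% of its cells had a UMI (80.1 to 96.4%). Brown levels were 37.6 in bAPC 1, 33.9 in bAPC 2, 28.1 in bAPC 3, 27.5 in bFAPLs, 26.8 in bAPC 4, 18.6 in bAPC 5 and 12.1 in bCAPs (9.81 to 14.7). The first and the second of these differed within counting error (0.15 on the log2 scale, -0.03 to 0.33). The bCAPs, highest of the 13 clusters for the inhibitor Serpine2, were thus lowest of the 13 for Plat, and 25% of them had a UMI. Glial cells held 70.0 CPM in WAT and 64.9 in BAT.

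Plau, the urokinase-type activator, was close to the detection limit in precursors. It reached 6.54 CPM in wAPC 1 (94 UMIs) and 6.87 in bAPC 4 (32 UMIs), and was lowest in wCAPs at 0.88 (0.51 to 1.40). Myeloid cells were far above all of these, with 86.4 CPM (67.7 to 109) in WAT and 72.4 (61.2 to 85) in BAT, with a UMI in 69.0% and 74.7%. Since Plau did not reach 10 CPM in any of the precursor groups compared, it was left out of the counts of differences below, which take 7 of the 8 genes.

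**Figure D1:**
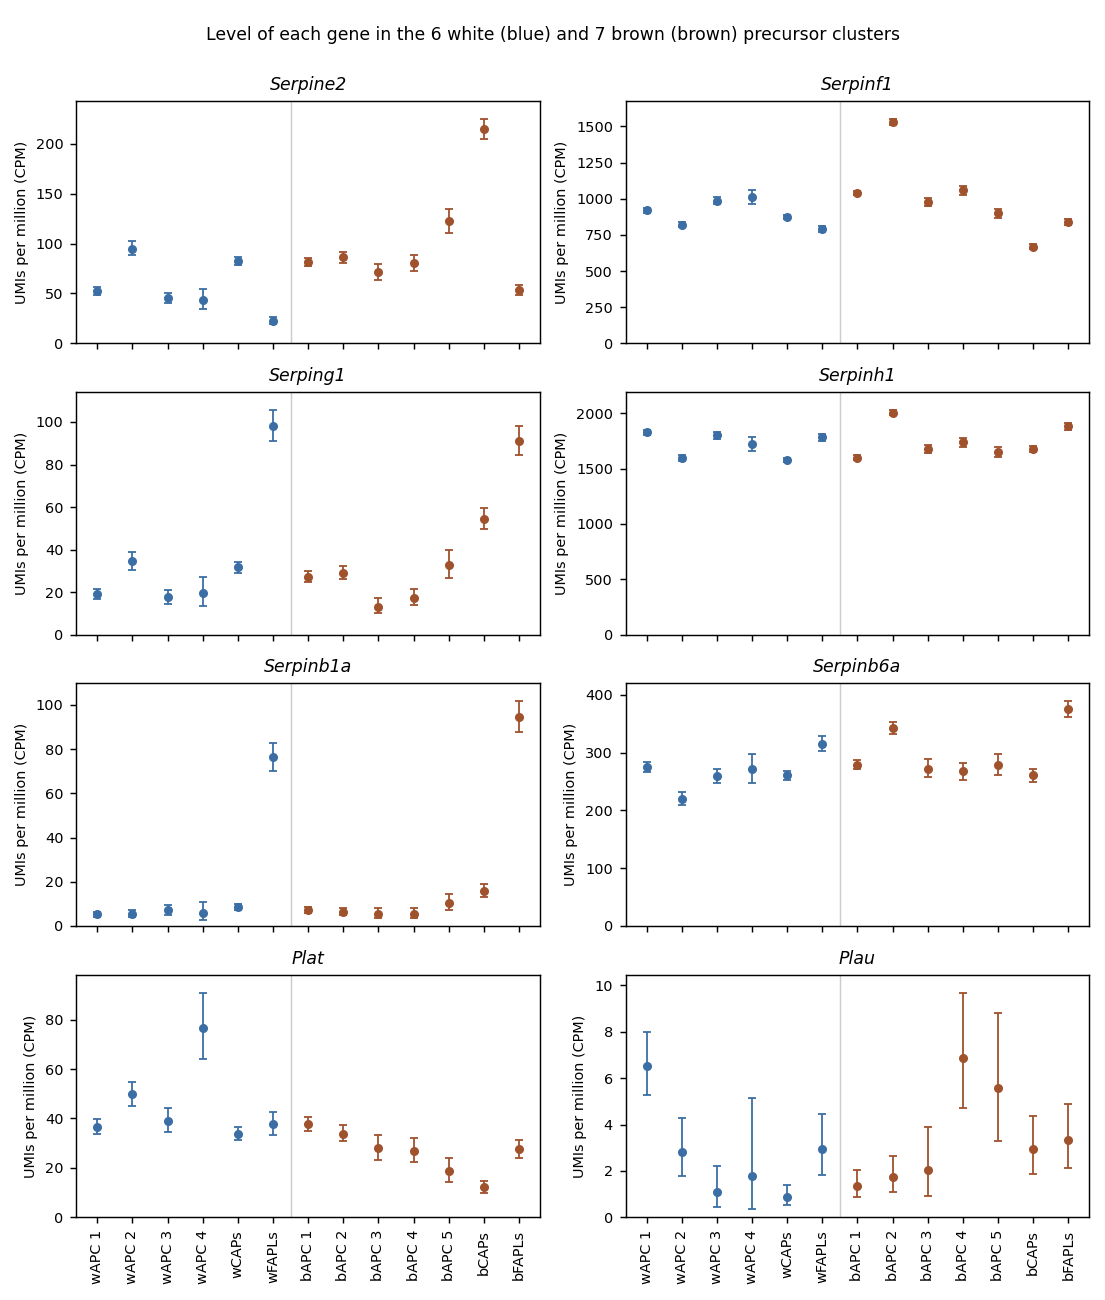
Level of the 8 genes, in CPM of summed UMIs on linear axes from 0, in the 6 white (blue) and 7 brown (brown) clusters of at least 50 cells, with exact 95% Poisson intervals for counting error. Serpinb1a and Serping1 stand out in wFAPLs and bFAPLs, Serpine2 in bCAPs at 215 CPM and Plat in wAPC 4 at 76.6 CPM, while Serpinh1 stays between 1574 and 2006 CPM.

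The 15 differentiating wFAPLs, a small cluster with a distinct profile, held Serping1 at 218 CPM (178 to 264), Serpine2 at 161 (127 to 202) and Plau at 29.4 (16 to 49.3, from 14 UMIs). Serpinf1 was at 302 CPM (255 to 355), Plat at 4.19 (2 UMIs) and Serpinb1a at 2.10 (1 UMI). Compared with wFAPLs, Serpine2, Serping1 and Plau were higher, and Serpinb1a, Serpinf1 and Plat lower, each with intervals apart. These cells also carried Myh11 at 2522 CPM and Acta2 at 24520, smooth muscle genes that were at 102 and 4155 CPM in wFAPLs. The part of those cells' muscle-like profile in these levels was not tested.

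To compare the depots as a whole, all labelled precursors of BAT were set against those of WAT. None of the 7 genes differed by 2-fold or more, a size that 1.83% of the 9041 genes with at least 10 CPM in either group reached. The largest difference was that of Serpine2, at 99.2 CPM in BAT and 64.5 in WAT, 0.62 on the log2 scale (0.56 to 0.68). Plat was the one measured gene that was lower in BAT beyond counting error, at 29.2 against 38.8 CPM (-0.41, -0.50 to -0.32). Serpinb1a was at 19.5 in BAT and 15.4 in WAT (0.34, 0.21 to 0.47), Serpinf1 at 1052 and 879 (0.26, 0.24 to 0.28) and Serpinb6a at 300.5 and 266 (0.18, 0.14 to 0.21). Serping1 (38.3 and 36.8 CPM) and Plau (2.65 and 3.1 CPM) had intervals that reached from lower to higher. Depot, library and digestion time cannot be told apart here.

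Between like clusters of the 2 depots, some of the 7 genes did pass 2-fold. Between bCAPs and wCAPs, 2 of the 7 genes passed 2-fold, where 4.32% of all 9235 genes did. Serpine2 was higher in bCAPs by 1.38 on the log2 scale (1.29 to 1.48) and Plat was lower (-1.49, -1.81 to -1.18), so inhibitor and activator lay on opposite sides. Serpinb1a (0.91, 0.57 to 1.26) and Serping1 (0.79, 0.61 to 0.96) were higher in bCAPs by less than 2-fold. With labels carried over to all filtered cells, Serpinb1a was just past it, at 1.06. A UMI of Serpinb1a was found in 19.9% of bCAPs and 17.4% of wCAPs, and 1 bCAP held 18 of the cluster's 130 UMIs. The intervals do not cover such uneven spread over cells. Serpinb6a differed by 0.00011 (-0.07 to 0.07). Between bFAPLs and wFAPLs only Serpine2 passed, at 53.2 against 22.5 CPM (1.24, 0.98 to 1.52), with 1.69% of all genes past 2-fold. In cells with no UMI of the mural genes Myh11, Rgs5, Abcc9 and Kcnj8, 66 wFAPLs and 101 bFAPLs, that difference was 0.70, under 2-fold.

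**Figure D2:**
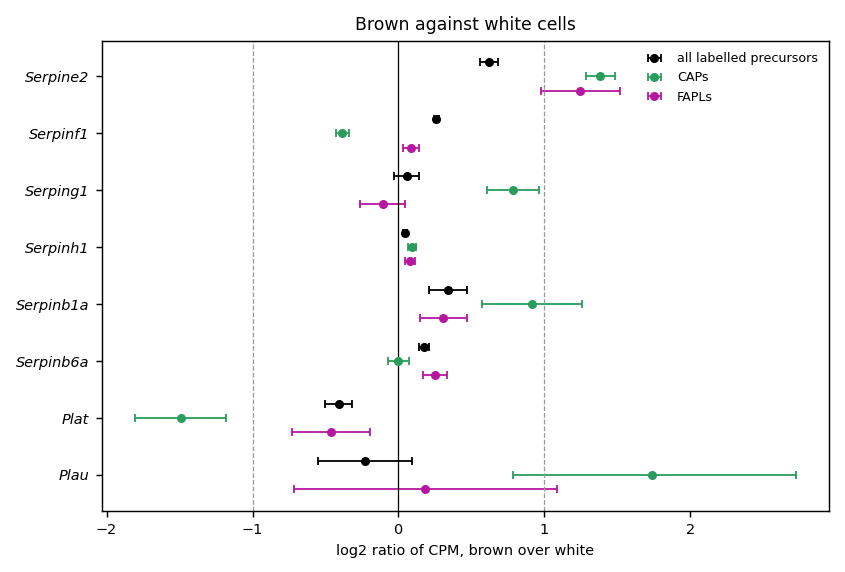
Log2 ratio of CPM, brown over white, for all labelled precursors (black), CAPs (green) and FAPLs (magenta), with exact 95% intervals for counting error and dashed lines at 2-fold. Serpine2 lies right of 1 in CAPs and FAPLs, at 1.38 and 1.24, and Plat left of -1 in CAPs, at -1.49.

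The study sets FAPLs against CAPs as the 2 ends of its progenitors. In WAT, 3 of the 7 genes differed by 2-fold or more, as did 3.85% of 9199 genes. Serpinb1a, by which the study also names its FAPLs, was higher in wFAPLs by 3.18 on the log2 scale (2.93 to 3.44) and Serping1 by 1.63 (1.48 to 1.79), and Serpine2 was lower (-1.88, -2.12 to -1.64). In BAT, 3 of 7 passed again, against 3.87% of 9148 genes, but not the same 3. Serpinb1a was higher in bFAPLs (2.58, 2.30 to 2.86), Plat also (1.19, 0.83 to 1.55), and Serpine2 lower (-2.02, -2.18 to -1.86). With every cell thinned at random to 10000 UMIs, Plat was at 0.68 and no longer passed. A UMI of Plat was then left in 19.4% of bFAPLs and 10.8% of bCAPs, and the thinned ratio has no interval here. Serpinb1a stayed under 10 CPM in wCAPs, so it entered the white count through the wFAPLs alone.

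The contrast was of like size in the depots for some genes and not for others. For Serpine2 the log2 ratios differed by -0.14, brown minus white (-0.42 to 0.14), and for Serpinh1 by -0.01 (-0.06 to 0.03), both within counting error. Plat differed by 1.03 (0.62 to 1.43), since FAPLs and CAPs were near each other in WAT (0.16, -0.05 to 0.37). Serping1 differed by -0.89 (-1.13 to -0.66): its ratio in BAT was 0.74 (0.57 to 0.92). Serpinb1a differed by -0.61 (-0.98 to -0.24), with bCAPs at 15.8 CPM against 8.41 in wCAPs. The 30 bCAPs with the most UMIs of this gene held 77.7% of those in the cluster, and the top 67 wCAPs 69.3%. The median was 0 UMIs in both clusters, and such shares are high where counts are sparse. Serpinf1 had opposite signs, -0.13 in WAT (-0.18 to -0.09) and 0.34 in BAT (0.28 to 0.39). Whether such differences exceed those between libraries of one depot cannot be told from 1 library each.

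**Figure D3:**
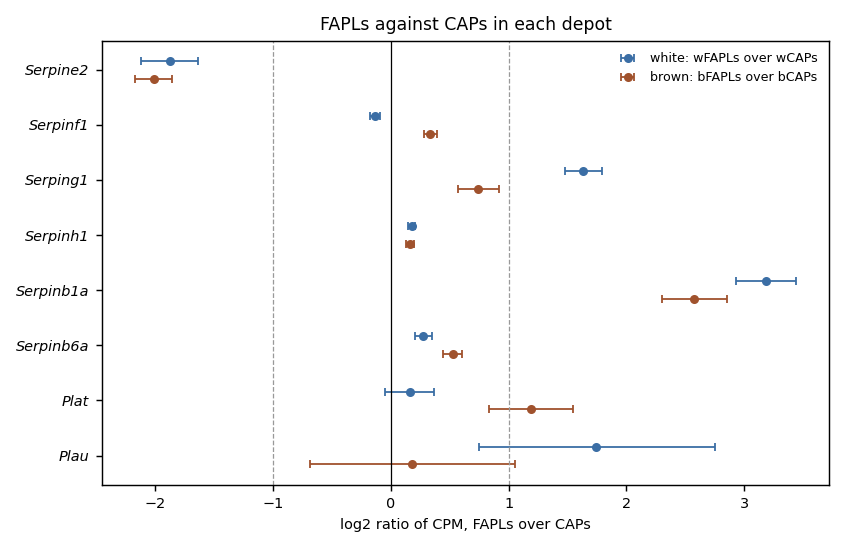
Log2 ratio of CPM, FAPLs over CAPs, in WAT (blue) and BAT (brown), with exact 95% intervals for counting error and dashed lines at 2-fold. Serpinb1a is at 3.18 and 2.58 and Serpine2 at -1.88 and -2.02, while Plat passes 2-fold in BAT alone, at 1.19 against 0.16 in WAT, with no test of that difference over libraries.

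Mural markers moved with this contrast. Myh11 was at 102 CPM in wFAPLs and 6.14 in wCAPs, Rgs5 at 28.3 and 0.62, and in BAT they were at 48.4 and 13.0 and at 76.8 and 8.53. Of the 7 listed mural markers, 6 were at least 2-fold higher in FAPLs in either depot, Acta2 being the exception. Cells with no UMI of Myh11, Rgs5, Abcc9 and Kcnj8 were 25.8% of wFAPLs, 36.2% of bFAPLs, 70.5% of wCAPs and 61.1% of bCAPs. Among them the same number of genes passed, 3 in each depot, with the share of all genes not computed. Serpinb1a was then at 56.2 CPM in wFAPLs and 8.39 in wCAPs, and at 56.4 in bFAPLs and 15.1 in bCAPs, so its log2 ratio was 2.74 in WAT and 1.90 in BAT. Serpine2 gave -1.80 and -2.54, Plat 1.59 in BAT, and Serping1 1.81 in WAT and 0.33 in BAT.

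Against all other precursors of its library, each FAPL cluster gave a similar picture. In wFAPLs 3 of 7 genes passed 2-fold (3.12% of all genes did), Serping1 at 1.81 and Serpine2 at -1.65 beside Serpinb1a. In bFAPLs 2 of 7 passed (2.98% of all genes), Serping1 at 1.59 beside Serpinb1a, and Serpine2 fell just short at 1.99-fold lower (-1.15 to -0.85 on the log2 scale). It passed in thinned cells (-1.07), in G1 cells (-1.09), with equal weight for each cell (-1.09) and without mural UMIs (-1.41). Centred on the median gene, whose log2 ratio was 0.0027, Serpine2 still fell just short. In these comparisons too Serpinb1a reached 10 CPM in the FAPLs alone.

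**Figure D4:**
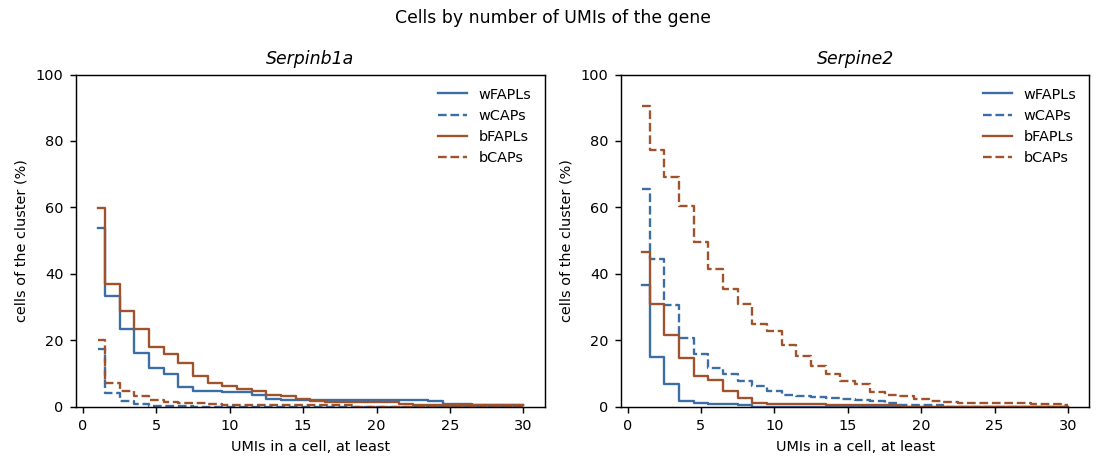
Share of cells (in %, vertical axis) with at least the number of UMIs on the horizontal axis, for Serpinb1a and Serpine2 in wFAPLs, wCAPs, bFAPLs and bCAPs (solid for FAPLs, dashed for CAPs, blue for WAT, brown for BAT). Serpinb1a shows a long tail in both FAPL clusters, with 10 or more UMIs in 4.30% of wFAPLs and 6.09% of bFAPLs, while 22.6% of bCAPs hold 10 or more UMIs of Serpine2.

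Levels of some of the genes differed between phases of the cell cycle. Serpine2 was at 75 CPM in white cells scored as G1 against 49.0 in S and 48.2 in G2M, and at 115 against 72.3 and 74.8 in BAT. Serping1 was also highest in G1, with 42.7 CPM in G1, 29.6 in S and 26.2 in G2M in WAT, and 46.2, 21.8 and 28.5 in BAT. Serpinh1 differed little, between 1687 and 1803 CPM over the 6 groups. Cells in S and G2M also held more UMIs, with medians of 30538.5 to 32252 against 25313 to 25529 in G1. The phases also differ in their clusters: 44.1% of wAPC 3 and 41.5% of bAPC 3 were in G1, against 71.4% of wCAPs, and these 2 are the lowest clusters of their depot for Serping1. The levels were therefore also split by phase within each of the 13 clusters, after the pooled values had been seen. Serpine2 was highest in G1 in 4 of 6 white and 6 of 7 brown clusters, with the G1 interval above both others in 1 and 4 of them. In wCAPs it was at 96.1 CPM in G1, 53.6 in S and 56.6 in G2M, and in bCAPs at 247, 177 and 158. Serping1 was highest in G1 in 4 of 6 white and 7 of 7 brown clusters, with intervals apart in 1 and 3. Serpinb6a was highest in G1 in 3 of 6 white and 7 of 7 brown clusters, with intervals apart in 0 and 3. For Serpinf1 these were 4 of 6 white and 3 of 7 brown clusters, with intervals apart in 2 and 0. Plat was highest in G1 in 5 of 6 and 5 of 7, and Serpinb1a in 3 of 6 and 4 of 7, with intervals apart in 0. In both CAP clusters Serpinb1a was instead higher in G2M. It was at 13.5 CPM there (9.78 to 18.1) against 7.73 in G1 (6.29 to 9.40) in wCAPs. In bCAPs these were 27.6 (19.9 to 37.3) and 13.9 (10.8 to 17.6). In G1 cells alone, 3 genes passed 2-fold between FAPLs and CAPs in either depot, with the share of all genes in those cells not computed.

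Across the 13 clusters, levels on the log2(CPM + 1) scale were correlated as a description, since clusters of a depot share one library. Serpinb1a went with Serping1 (Pearson's r = 0.90), Serpinb6a with Serpinh1 (r = 0.73), and Serpine2 ran against Plat (r = -0.65). Serpinb1a also went with Serpinb6a (r = 0.65). No r was computed within a depot. Among white clusters wAPC 2 was highest for Serpine2 and second for Plat, while wCAPs were second for Serpine2 and lowest for Plat. In the first pair wFAPLs and bFAPLs were highest for both genes, with Serpinb1a at 76.3 and 94.5 CPM and at most 15.8 in the other clusters. The differentiating wFAPLs, not among the 13, held Serping1 at 218 CPM and Serpinb1a at 2.10. The first 3 relations were far weaker over single cells within the FAPL and CAP clusters (256 wFAPLs, 279 bFAPLs, 674 wCAPs and 296 bCAPs). There r was between 0.03 and 0.11 for the first pair and between -0.02 and 0.13 for the second. For Serpine2 with Plat it was between -0.09 and 0.06. Counts are sparse for all but Serpinb6a and Serpinh1. Serpinb1a with Serpinb6a gave r = 0.27 in wFAPLs, 0.21 in bFAPLs, 0.11 in wCAPs and 0.18 in bCAPs. Serpinf1 and Serpinh1 went together in single cells of all 4 end clusters, with r = 0.32 in wFAPLs, 0.41 in bFAPLs, 0.31 in wCAPs and 0.24 in bCAPs. Of 4460 genes with at least 50 CPM in a cluster, Qpct (r = 0.94) and Serpinb9 (0.93) were most like Serpinb1a, P3h3 (0.91) and Abcc9 (0.91) like Serping1, and Zfp503 and Gpx3 (0.87 each) like Serpine2. Rps27a (0.90) and Rps13 (0.88) were most like Serpinf1, Selenof (0.89) and Chmp2a (0.87) like Serpinb6a, and Mrps14 (0.89) and Edf1 (0.83) like Serpinh1. For the activators these were Cdr2l (0.90) and Zfp469 (0.89) for Plat, and Tpm1 (0.91) and Inhba (0.87) for Plau. Each was picked as 1 of the best 2 of 4460 genes over 13 clusters, and the r that unrelated genes would reach was not computed. Plau also rests on few counts, with 3 UMIs in wAPC 4.

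Besides these 8 genes, 59 others were listed: genes that work with them, by role, and 20 other serpins, which are relatives. Of the 59 genes, 25 were tested in WAT and 27 in BAT. Between FAPLs and CAPs, 4 passed 2-fold in WAT, 3 of them higher in FAPLs, and 7 in BAT, 4 higher and 3 lower, where 3.85% and 3.87% of all genes tested did. Some listed genes, Col4a1 and Col4a2 among them, are ones the study itself picked out for FAPLs in these libraries, so these counts are not independent of the clusters. In BAT, Serpinb6b reached 10 CPM in bFAPLs alone and Masp1 in bCAPs alone, so each entered the count through its higher group. None of the 6 receptors and cofactors of plasmin formation tested passed in either depot, with medians of 0.08 in WAT and 0.19 in BAT on the log2 scale. Of 9 collagens and collagen-processing enzymes, 2 passed, both chains of basement membrane collagen: Col4a1 was at 946 CPM in wFAPLs against 264 in wCAPs (1.84, 1.79 to 1.89) and at 1269 against 263 in BAT (2.27, 2.20 to 2.34), and Col4a2 at 561 against 170 and 672 against 167. Their median was 0.16 in WAT and 0.56 in BAT, beside -0.01 and -0.04 for all genes tested.

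Among 20 other serpins, 2 were tested in WAT and 3 in BAT, and all of these are in the counts past 2-fold above. Serpinb9, an inhibitor of granzyme B, was higher in FAPLs, at 53.4 against 14.4 CPM in WAT (1.89, 1.67 to 2.12) and 46.6 against 16.9 in BAT (1.46, 1.17 to 1.75). Serpina3g was lower (-1.75 in WAT, -2.56 in BAT), and Serpinb6b was higher in bFAPLs at 19.6 against 2.68 CPM. These last 2 lie under 50 CPM and were named after their values were seen, as was Masp1, a target of C1 inhibitor, at 3.18 in bFAPLs against 10.5 in bCAPs. Of 4 reported receptors of PEDF, Plxdc2 passed in BAT, where it was lower in bFAPLs at 307 against 808 CPM (-1.40, -1.47 to -1.33). Targets of the members (4 tested in WAT, 3 in BAT) and coagulation genes (2 and 3) held no other gene past 2-fold. Plg, which encodes the activators' substrate plasminogen, had 1 UMI in the 1999 white and 0 in the 1999 brown precursors, the latter allowing up to 0.05 CPM. It too was named after its value was seen.

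**Figure D5:**
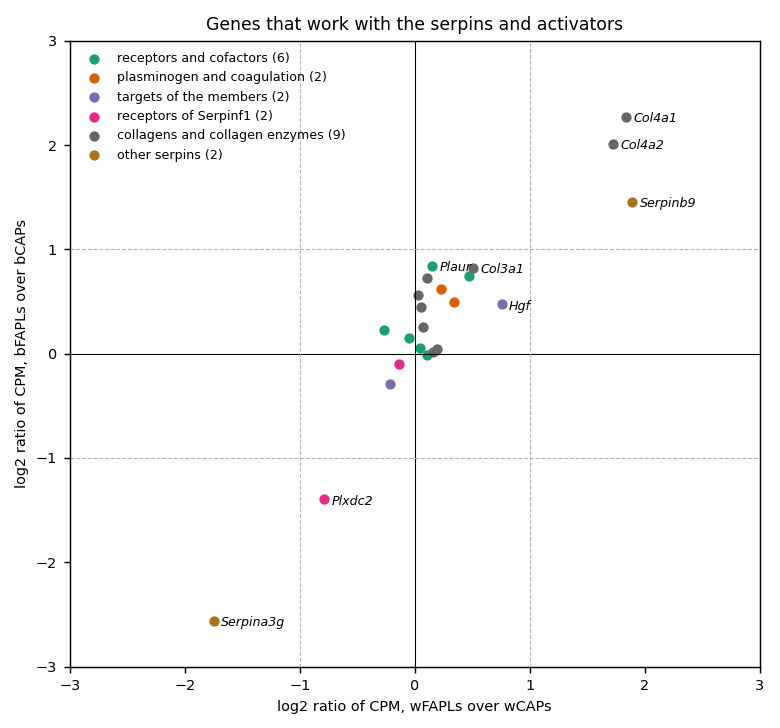
Log2 ratio of CPM, FAPLs over CAPs, in WAT (horizontal) and BAT (vertical) for the 23 listed genes tested in both depots, coloured by role with their number in parentheses and with dashed lines at 2-fold. Col4a1, Col4a2 and Serpinb9 lie beyond 2-fold higher and Serpina3g beyond 2-fold lower in both, and Plxdc2 in BAT alone.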

How the data were processed

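Per the labels and the paper's methods, the authors used 10x Chromium 3′ v3.1 chemistry and Cell Ranger (version 7.0.1 in the submitters' processing notes) with its cell calls against mm10. The deposited values are UMI counts per gene and cell, not normalized, not divided by length and with no replicate. Limits were 3900 to 7700 genes (found in at least 3 cells), 6000 to 60000 UMIs and 1.7 to 5% mitochondrial UMIs. Applied here, they passed 4407 cells in WAT and 6137 in BAT, where the paper gives a slightly higher number. The upper limits were the only treatment of doublets, and no caller was run.

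Clusters are the authors' labels, used here for 1999 precursors per depot, the first in barcode order. Early precursor clusters, named by depot and number there, are called wAPC and bAPC. Glial, myeloid and myogenic cells, and 1 alternative for the clusters, use labels carried over by vote of 15 labelled neighbours on 10 principal components of 2000 variable genes. When labels were withheld, the vote returned the right cluster for 89.2% of cells in WAT and 83.5% in BAT. The number of components was set after such rates had been seen. Genes entered counts of differences with at least 10 CPM in either group. Named genes are the 8 members, listed genes with at least 50 CPM in a cluster of at least 50 cells that pass 2-fold, and the 2 genes most correlated with each member. Members and lists were chosen with earlier results of these data known. Intervals were tested on counts simulated from the Poisson and binomial models that they assume, without uneven spread over cells. That test cannot show how they cover the real spread. Python 3.11.15, numpy 2.4.6, scipy 1.17.1, scikit-learn 1.9.0 and scanpy 1.11.5 were used.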

Additional observations from a re-analysis of the deposited data

Results flagged for a closer look

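For Serpinf1 the FAPLs lay below the CAPs in WAT (log2 ratio -0.13) and above them in BAT (0.34). The difference between depots was not tested, since each depot is 1 library.

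Cells removed by the limits on genes, UMIs and mitochondrial share, and so left out of the comparisons, held UMIs of all 8 genes. The 696 removed white cells with at least 1000 genes (median of 12101.5 UMIs) held Serpine2 at 91.1 CPM, Serpinf1 at 684, Serping1 at 28.9, Serpinh1 at 1575, Serpinb1a at 9.10, Serpinb6a at 232, Plat at 35.7 and Plau at 4.06. The 756 removed brown cells (median of 51576.5 UMIs) held Serpine2 at 122 CPM, Serpinf1 at 866, Serping1 at 27.7, Serpinh1 at 1647, Serpinb1a at 10.1, Serpinb6a at 264, Plat at 24.2 and Plau at 3.68. Serpinb1a, Serpinf1, Serping1, Serpinb6a and Serpinh1 were lower, and Serpine2 higher, than in the labelled precursors of the same depot, with intervals apart in both depots. Plat was lower in both, with intervals apart in BAT alone, and Plau was higher with overlapping intervals, and the cell types among removed cells were not determined.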

How the results depend on the processing

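No paired analysis was possible because each depot has 1 library and no test was run. With a fold of 1.5 in place of 2, the number of the 7 tested genes that differed rose from 0 to 1 between brown and white precursors. It rose from 2 to 4 between bCAPs and wCAPs, and listed pathway genes between bFAPLs and bCAPs rose from 7 to 12, by the looser limit itself. In cells with no UMI of 4 mural genes, an alternative chosen after their levels were seen, the number between bFAPLs and wFAPLs went from 1 to 0. The cause was not tested, and no share of all genes was computed under any of the alternatives. Counts that changed by up to 1.5-fold under an alternative are not listed here. Of 336 single ratios recomputed under the alternatives, 280 stayed within their counting interval, 56 moved beyond it and 0 of those past 2-fold changed sign. The 13 that changed sign were all under 2-fold as reported. The alternative without mural UMIs alone moved 23 of its 40 ratios beyond their interval and kept 17 within it. The largest shift, 1.10 on the log2 scale, came with thinning to 10000 UMIs. Ratios from fewer cells or UMIs carry added counting error of their own, which these counts of moved ratios do not take into account. The depth limits Plau most, with 17 to 25 UMIs in each CAP and FAPL cluster.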
